A study of Homo sapiens with 18 samples.

Results

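The chromosome 11q13 segment around CCND1 was followed by ATAC-seq in 3 squamous cell lines of the head and neck, SCC1, SCC6 and SCC25. Its members were all rows of the study's table of open regions that lie on chromosome 11 and start between positions 67000000 and 72000000 of hg19. There were 224 such regions among 115087 in the whole table and 5593 on the rest of the chromosome. They were between 74 and 1139 bp wide (median 310.5 bp) and covered 84.6 kb in all. By GENCODE annotation 108 lay in introns, 67 between genes, 24 over a coding exon and 25 over a non-coding exon or UTR, and 51 lay within 1 kb of a start site and were taken as promoters. The members were richer in GC than the table as a whole, with a median of 57.7% against 45.9%.

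Each line was cultured for 5 days with cetuximab, an antibody that blocks the epidermal growth factor receptor, at 100 nM, or with PBS as the untreated control. All groups had 3 libraries except SCC1 with PBS, of which replicates 1 and 3 were used and replicate 2 was not analysed here. SCC1, SCC6 and SCC25 are each a single tumour-derived line, so a difference between them is a difference between 3 lines and not between classes of tumour. The labels do not say whether replicates were separate cultures, so the p-values measure the spread between these libraries, which may be technical.

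Band 11q13 is a frequent site of gene amplification in head and neck squamous carcinoma. CCND1 encodes cyclin D1, which drives cells from G1 into S phase with the kinases CDK4 and CDK6, and its neighbours include ANO1, a calcium-activated chloride channel, FADD, an adaptor of death receptors, PPFIA1 (liprin-alpha-1), a scaffold of cell adhesion sites, and CTTN (cortactin), an organiser of the actin cortex. In ATAC-seq a transposase cuts open chromatin, and the number of cuts over a region grows with how open it is and with how many copies of it the cell holds. These factors cannot be told apart by the signal alone. In bulk libraries, more cells with an open region and a more open region in each cell cannot be told apart either.

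The libraries held 2194851 to 4171650 reads in regions for SCC1, 4098164 to 15017130 for SCC6 and 2513828 to 13408698 for SCC25. All 6 squamous markers (KRT5, KRT14, TP63, SFN, CDH1 and GRHL2) had a promoter region, although that of KRT14 was close to the lowest level in SCC6 (mean signal 1.74, against 57.7 in SCC1 and 34.0 in SCC25). None of the 5 leukocyte and endothelial markers (PTPRC, CD3E, CD79A, PECAM1 and CDH5) had one. Of the 3 fibroblast markers LUM had none, DCN was at 0.962 to 2.69 in the means of the lines and COL1A2 was at 8.48 to 43.9.

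For 6 members outside exons the DNA of up to 300 bp at their centre is printed, because the differences described here turn on them. Letters come from the plus strand of GRCh37, the build of the coordinates. Capitals mark a match, on either strand, to TGANTCA, the core bound by AP-1 factors, or to GCCNNNGGC, the core bound by TFAP2 factors. The first 2 lie in the core of the segment and were higher in SCC25 than in the other lines. The next 2 carry AP-1 matches and were lower after cetuximab in 1 or more lines, and the last 2 were higher after cetuximab. AP-1 matches were not confined to regions that fell. A region near GSTP1 (chr11:67331123-67331532) and an intron of RNF121 (chr11:71657137-71657587), not printed, rose in SCC6 and carry 1 match each.
Upstream of CCND1, chr11:69453809-69454108: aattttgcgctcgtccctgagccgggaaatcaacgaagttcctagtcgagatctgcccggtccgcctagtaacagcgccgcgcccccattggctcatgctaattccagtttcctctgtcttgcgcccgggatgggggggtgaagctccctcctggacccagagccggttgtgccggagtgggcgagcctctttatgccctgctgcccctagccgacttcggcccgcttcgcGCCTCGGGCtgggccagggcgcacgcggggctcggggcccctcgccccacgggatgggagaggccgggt
Intron of ANO1, chr11:69926905-69927204: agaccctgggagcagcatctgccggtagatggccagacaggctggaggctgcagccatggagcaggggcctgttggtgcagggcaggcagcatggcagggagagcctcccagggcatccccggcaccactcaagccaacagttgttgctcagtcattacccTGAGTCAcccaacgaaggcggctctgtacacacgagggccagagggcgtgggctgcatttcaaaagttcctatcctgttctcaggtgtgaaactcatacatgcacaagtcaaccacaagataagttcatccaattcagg
Between genes, nearest GAL, chr11:68444970-68445263: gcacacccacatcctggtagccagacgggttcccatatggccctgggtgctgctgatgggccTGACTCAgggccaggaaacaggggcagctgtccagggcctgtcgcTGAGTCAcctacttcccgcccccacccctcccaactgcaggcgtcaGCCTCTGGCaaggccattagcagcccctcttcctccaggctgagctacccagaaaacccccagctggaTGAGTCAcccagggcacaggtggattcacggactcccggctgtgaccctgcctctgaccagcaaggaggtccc
Intron of MYEOV, chr11:69167570-69167869: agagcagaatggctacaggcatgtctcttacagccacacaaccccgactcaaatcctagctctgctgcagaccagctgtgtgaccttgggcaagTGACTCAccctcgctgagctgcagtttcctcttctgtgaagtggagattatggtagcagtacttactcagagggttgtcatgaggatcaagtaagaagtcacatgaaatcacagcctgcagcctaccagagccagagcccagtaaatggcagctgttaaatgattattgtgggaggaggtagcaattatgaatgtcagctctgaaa
Between genes, nearest MYEOV, chr11:69213858-69214157: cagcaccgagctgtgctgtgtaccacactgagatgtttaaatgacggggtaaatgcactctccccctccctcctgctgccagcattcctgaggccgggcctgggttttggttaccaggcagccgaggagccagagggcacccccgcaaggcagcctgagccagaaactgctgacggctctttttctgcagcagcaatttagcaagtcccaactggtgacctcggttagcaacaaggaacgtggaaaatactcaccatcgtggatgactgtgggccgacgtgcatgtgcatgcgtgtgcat
Intron of the lncRNA gene ENSG00000204971, chr11:71892323-71892622: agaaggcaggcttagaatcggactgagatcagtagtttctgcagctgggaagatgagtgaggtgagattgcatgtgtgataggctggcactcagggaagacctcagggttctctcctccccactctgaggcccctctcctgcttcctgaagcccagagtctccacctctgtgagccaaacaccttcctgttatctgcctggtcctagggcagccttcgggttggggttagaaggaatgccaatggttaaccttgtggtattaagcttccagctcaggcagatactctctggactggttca

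In untreated cells the segment was higher in SCC25 than in both other lines, and the difference began part of the way along it. Values are scaled read counts per region (signal), tested as log2(signal + 1) with limma after the 25% of regions with the lowest mean were left out. Of 164 members tested, 96 were higher and 10 lower in SCC25 than in SCC1, where 28.2% of all regions tested were higher and 23.1% lower. Against SCC6, 108 were higher and 14 lower, with 36.7% and 32.1% of all regions. The median difference over the members was 1.05 against SCC1 and 1.23 against SCC6 on the log2 scale, beside −0.04 and 0.06 over all regions. SCC25 was called above both lines at 85 members. Both comparisons use the same SCC25 libraries, and the matching share over all regions was not counted. The filter can let a region in through the line where it is high, so the count was also taken over all 224 members with no filter. There, 103 were higher and 7 lower in SCC25 than in SCC1 (23.5% and 18% of all regions) and 119 higher and 18 lower than in SCC6 (31.1% and 34.2%). SCC6 and SCC1 differed less, with 22 members higher and 54 lower in SCC6, where 30.7% and 30.5% of all regions were called, and a median of −0.24 beside −0.06. This balance turned with the GC trend removed, to 36 higher and 26 lower. The cetuximab libraries gave 72 higher and 39 lower for SCC25 against SCC1, 114 and 13 for SCC25 against SCC6, and 16 and 112 for SCC6 against SCC1.

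The difference depended on position. From 67 to 68.5 Mb the median log2 difference of SCC25 was 0.07 against SCC1 and 0.21 against SCC6, and from 68.5 to 72.0 Mb it was 1.55 and 1.97. The boundary at 68.5 Mb, close to CPT1A, was placed after the values of 500 kb bins had been seen. The bin from 69.5 to 70.0 Mb, with part of ANO1, stood highest, at 2.64 against SCC1 and 3.71 against SCC6, and the bin from 70.0 to 70.5 Mb, with FADD, PPFIA1 and CTTN, followed at 2.37 and 2.3. On both sides of these the bins lay between 1.27 and 1.47 against SCC1 and between 1.61 and 2.06 against SCC6. Before the boundary 16 of 56 members tested were called between SCC25 and SCC1, beside 44291 of all 86315 regions tested. Between SCC25 and SCC6 it was 21 of 56, beside 59309 of 86315. Both shares of members lay below those of all regions. After the boundary 90 and 101 of 108 members were called. The boundary was chosen from the same differences, so these counts describe the step and do not test it.

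**Figure D1:**
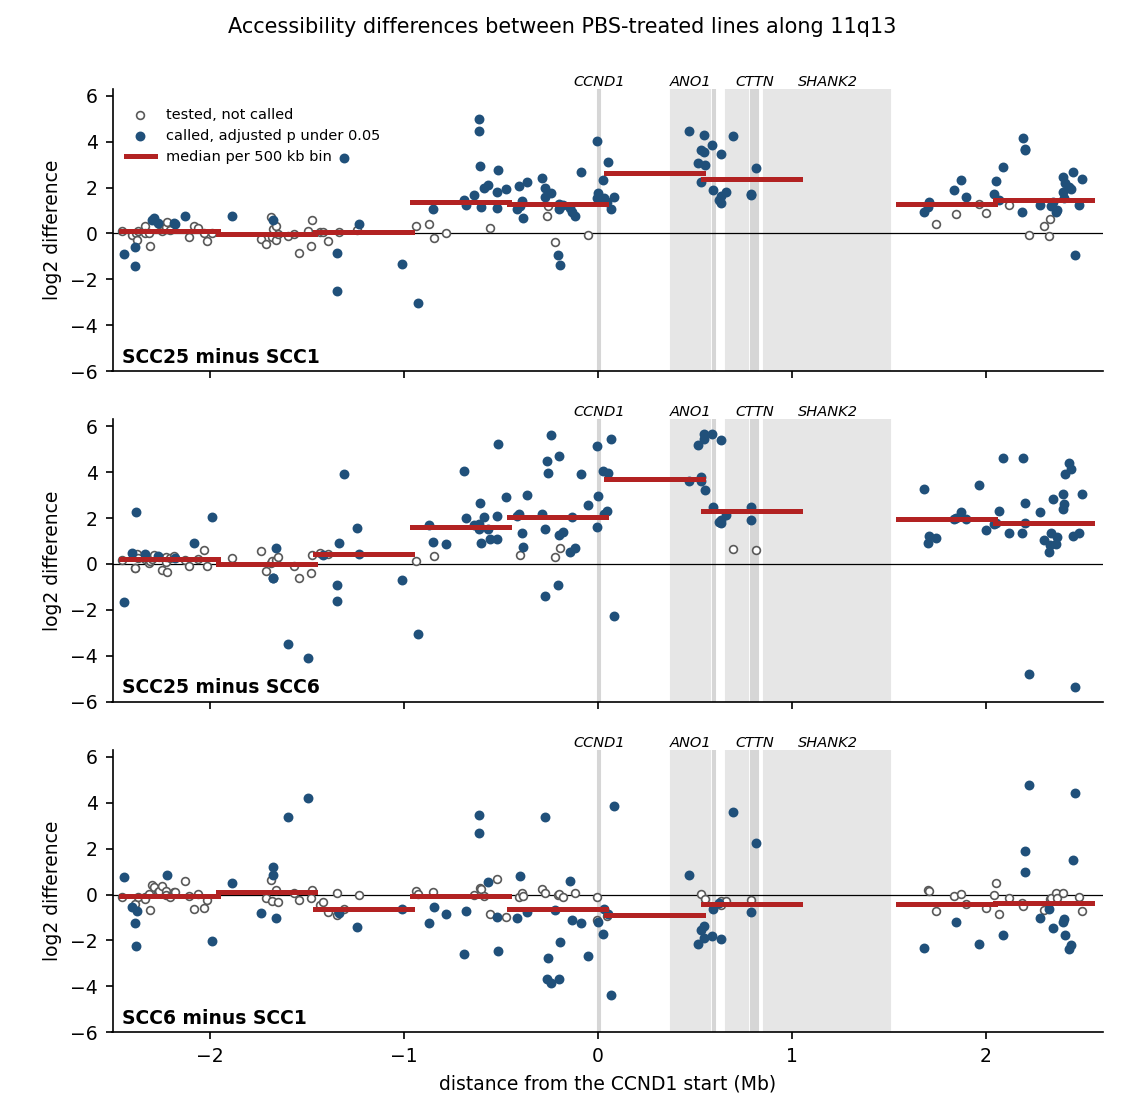
Each point is a member tested in untreated cells, plotted by its distance from the start of CCND1 in Mb against the log2 difference in signal between a pair of lines. Filled points passed the test, red bars give the median of each 500 kb bin and grey blocks mark gene bodies. The medians of SCC25 stay near 0 on the left, step up about 1 Mb before CCND1 and peak between CCND1 and SHANK2, at 2.64 against SCC1 and 3.71 against SCC6.

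Single libraries gave the same picture. Relative to the mean of the untreated lines, the median log2 level from 68.5 to 72.0 Mb was 1.14 to 1.34 in the untreated SCC25 libraries, −0.49 and −0.21 in SCC1 and −0.78 to −0.68 in SCC6, with no overlap between lines. The share of a library's reads that fell in the 224 members was 38.4 to 49.9 per 10000 in all 6 SCC25 libraries, 18.8 and 19.9 in the untreated SCC1 libraries, 27.5 to 35.3 in the SCC1 libraries with cetuximab and 14.5 to 17.2 in all 6 SCC6 libraries. Regions in which neither line of a pair had a peak in any library were read separately. They can be listed through peaks of the third line. From 68.5 to 72.0 Mb 14 members had no peak in SCC25 or SCC1, and of 10000 reads in all such regions of the genome they took 8.18 to 10.8 in untreated SCC25 and 1.43 to 1.94 in SCC1, a ratio of 5.61. With cetuximab the ratio was 3.06. These 14 members together held 19 to 433 reads in a library, and the cause of the ratio was not tested. From 67 to 68.5 Mb 7 such members gave a ratio of 1.14 with PBS and 0.763 with cetuximab, and the libraries of the lines overlapped with each treatment. Only 1 member had no peak in SCC25 and SCC6, which leaves no such reading for this pair. Other places in the genome differed as much. Among 536 windows of 5 Mb, 30 were at or above the segment's median against SCC1 and 26 at or above it against SCC6. Windows that overlap the segment were not left out of these. Among 4908 windows of 500 kb the level of the bin from 69.5 to 70.0 Mb was reached by 84 and 6, with that bin itself counted.

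Core genes of the segment were described by their promoters and by every member in the gene body or within 50 kb. These stretches overlap between neighbouring genes, so a member can count near more than 1 gene. No member lies within 1 kb of the start of CCND1 (ENSG00000110092.4, chr11:69455924-69469242, plus strand), and a peak overlapped that start in 1 library, SCC25 with PBS replicate 1. The closest member, chr11:69453766-69454152, lies 1.77 kb upstream in intergenic DNA. Its signal in untreated SCC25 was 194, 151 and 189, in SCC1 56 and 65.9 and in SCC6 52, 69.6 and 50. All SCC25 values lay above all others, and the log2 difference was 1.53 (SE 0.19, adjusted p = 1.15e-05) against SCC1 and 1.63 (SE 0.17, adjusted p = 5.93e-07) against SCC6. All 7 members near CCND1, also with no filter, were higher in SCC25 than in SCC1 and than in SCC6, with medians of 1.75 and 2.94.

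LTO1, a factor in the maturation of the ribosome recycling protein ABCE1, starts next to CCND1. Over its first exon (chr11:69489723-69490401) the signal was 273, 229 and 243 in untreated SCC25, 74.2 and 94.9 in SCC1 and 42.3, 60.2 and 63.1 in SCC6. The lines did not overlap, and SCC25 was higher by 1.55 (SE 0.19, adjusted p = 8.8e-06) than SCC1 and by 2.17 (SE 0.17, adjusted p = 1.97e-08) than SCC6. FGF19, FGF4 and FGF3, genes of secreted growth factors that follow LTO1, had no promoter member. A member near FGF19 (chr11:69521982-69522227) stood at 1 read in every untreated SCC6 library, so its level in SCC1 was at least 13.5-fold higher and in SCC25 at least 28.6-fold higher, counted against a floor of 3 reads per library.

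ANO1 (ENSG00000131620.18, chr11:69832013-70035636, plus strand) gave the widest gap of the 5 core promoters. Its member with a start site is an internal promoter in an intron, chr11:69988330-69988776, with a signal of 314, 270.4 and 281 in untreated SCC25, 22.1 and 22.3 in SCC1 and 18.1, 26.8 and 22.8 in SCC6. SCC25 was higher by 3.64 (SE 0.21, adjusted p = 9.63e-09) than SCC1 and by 3.63 (SE 0.19, adjusted p = 2.73e-10) than SCC6, while SCC6 and SCC1 differed by 0.00 (SE 0.21, adjusted p = 0.986). The AP-1 match printed for the intron of ANO1 belongs to chr11:69926843-69927266, where the signal was 328, 317 and 314 in SCC25, 11.7 and 15.6 in SCC1 and 31.4, 19.4 and 25 in SCC6. Several members near ANO1 passed the filter through SCC25, so they were counted with no filter: of 20, 11 were higher in SCC25 than in each other line and none lower, and the other 9 stood at 1 read in every library.

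FADD (ENSG00000168040.5, chr11:70049402-70053496, plus strand) has a promoter member over its first exon, chr11:70049142-70050280. Its signal was 428, 435 and 359.7 in untreated SCC25, 96.3 and 126 in SCC1 and 68.9, 72.9 and 72.9 in SCC6. The difference was 1.87 (SE 0.15, adjusted p = 1.21e-07) against SCC1 and 2.49 (SE 0.13, adjusted p = 2.84e-10) against SCC6. All 9 members near FADD, also with no filter, were higher in SCC25 than in each other line, with medians of 3.00 and 3.21.

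At PPFIA1 (ENSG00000131626.19, chr11:70116796-70231418, plus strand) the first exon, chr11:70116222-70117249, had 607, 588 and 549 in untreated SCC25, 143 and 185 in SCC1 and 128, 126 and 147 in SCC6, a difference of 1.83 (SE 0.13, adjusted p = 3.39e-08) and 2.11 (SE 0.11, adjusted p = 2.89e-10). With no filter, all 10 members near it were higher in SCC25 than in SCC1 and 8 higher than in SCC6. CTTN (ENSG00000085733.16, chr11:70244510-70282690, plus strand) was read at an intronic promoter, chr11:70245586-70246202, with 386, 392 and 359 in untreated SCC25, 118 and 112 in SCC1 and 60.4, 60.2 and 80.5 in SCC6. SCC25 was higher by 1.71 (SE 0.15, adjusted p = 3.22e-07) than SCC1 and by 2.49 (SE 0.13, adjusted p = 3.01e-10) than SCC6. With no filter, 4 of 6 members near CTTN were higher in SCC25 than in SCC1 and 3 higher than in SCC6. None was lower, and 2 of the 6 stood at 1 read in every library. SCC6 was lower than SCC1 at the promoters of LTO1, FADD and CTTN, with log2 differences of −0.62, −0.62 and −0.78. Each of these 3 calls was lost with the trend on GC content removed (adjusted p = 0.15, 0.165 and 0.636), and that of LTO1 also without PBS replicate 3 of SCC1 (0.119).

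**Figure D2:**
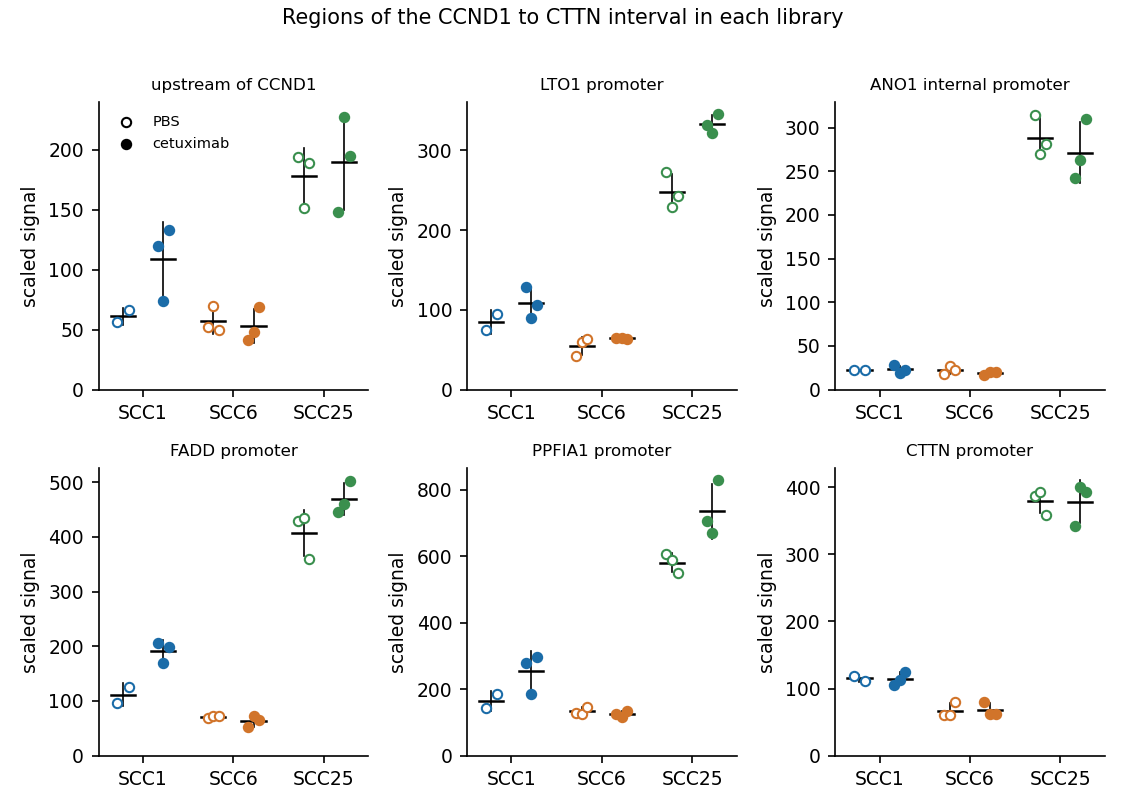
Signal of 6 regions from CCND1 to CTTN in every library, by line, with PBS as open and cetuximab as filled points. Lines mark the mean and bars the SD. At each region the SCC25 libraries lie above those of the other lines whichever treatment they had.

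Outside the core the listed promoters differed by side. Of 13 promoters of the listed genes before CCND1, 5 were higher in SCC25 than in SCC1, where 28.2% of all regions tested were higher. Against SCC6 5 were higher and 1 lower, where 36.7% and 32.1% of all regions were. The medians of these promoters were 0.42 and 0.29. All 7 listed promoters after CTTN were higher in SCC25 than in each other line, with a median of 1.21 in both comparisons. They belong among others to DHCR7, the last enzyme of cholesterol synthesis, NUMA1, a protein of the spindle poles, LAMTOR1, which anchors nutrient signalling at the lysosome, and INPPL1, a phosphoinositide phosphatase. Some members went against the segment. An intron of KMT5B, a histone H4 methyltransferase gene (chr11:67960673-67960873), was at 44.7, 30.8 and 45.7 in untreated SCC6, 1.3 and 1.12 in SCC1 and 1.88, 0.721 and 1.7 in SCC25. It was higher in SCC6 by at least 11.1-fold against SCC1, where no library passed 1 read. In an intron of ENSG00000204971 (chr11:71916176-71916375) the signal was 65.2, 60.9 and 75 in SCC6 and 0.377, 0.721 and 0.848 in SCC25, at least 34.5-fold higher in SCC6, in a stretch where most members were higher in SCC25.

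In SCC1 many members rose after cetuximab. Of 171 tested, 60 were higher and 1 lower than with PBS, where 4.57% of all regions tested were higher and 6.56% lower. The median log2 change was 0.71 over the members and −0.09 over all regions. From 67 to 68.5 Mb 36 of 57 members tested were higher and 1 lower, and after the boundary 24 of 114 were higher. Of the 51 promoters 34 were higher, and 3 with the trend of change on GC content removed. The share of all promoter regions called higher was not counted. Counting any change above 0, called or not, 94.1% of the promoter members rose in SCC1, with a median of 0.78. Over all promoter regions of the table it was 65.5%, with a median of 0.18. The median level from 67 to 68.5 Mb was −0.01 and 0.00 in the PBS libraries of SCC1 and 0.61 to 1.10 in its cetuximab libraries. The count moved with single libraries. Without cetuximab replicate 1, 29 of 168 members were called, beside 5691 of 86325 regions in the whole table. Without cetuximab replicate 3 it was 37 of 171, beside 6975 of 86328, and without replicate 2 72 of 173, beside 12600 of 86364. Without PBS replicate 1 or 3, which leaves 1 PBS library, the median change was 0.51 or 0.82, beside −0.14 or −0.07 over all regions. The count also moved with base composition. With the GC trend removed 8 of 171 members were called, beside 4157 of 86321 regions in the whole table. The median of the members then lay 0.62 above that of all regions. Relative to the segment itself, with each library centred on its members, 5 members were higher and 17 lower. Only 8 of 531 windows of 5 Mb changed as much in SCC1, 7 of them on chromosomes 16, 17, 19 and 22, and their GC content was at least 58.9%, beside a median of 47.5% over the windows. The part of GC content in the result was not tested further.

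Of the 13 listed promoters before CCND1, 12 were higher in SCC1 after cetuximab, with a median of 0.98. Of all regions tested 4.57% were higher, and the share of all promoter regions was not counted. At RAD9A, part of the DNA damage checkpoint clamp (chr11:67159165-67159552), the signal was 29.9 and 35.7 with PBS and 121, 77.9 and 100.2 with cetuximab, a log2 change of 1.55 (SE 0.30, adjusted p = 3.79e-05). At CDK2AP2, a partner of the kinase CDK2 (chr11:67275352-67276233), it was 234 and 198 with PBS and 558, 290.0 and 462 with cetuximab, a change of 0.97 (SE 0.17, adjusted p = 6.71e-06). At the histone methyltransferase gene KMT5B (chr11:67981147-67981566) it was 18.2 and 26.8 with PBS and 67.3, 68.1 and 86.1 with cetuximab, a change of 1.69 (SE 0.34, adjusted p = 0.000116). These 3 calls were lost with the GC trend removed, at adjusted p = 0.151, 0.187 and 0.186. PPP6R3, a subunit of protein phosphatase 6 (chr11:68227513-68228340), went from 185 and 154 to 397, 286 and 355, a change of 1.02 (SE 0.18, adjusted p = 4.41e-06), and its call held there. So did that of NDUFS8, a subunit of respiratory complex I (chr11:67797846-67798246), which went from 121 and 93.8 to 231, 177 and 257, a change of 1.03 (SE 0.21, adjusted p = 0.000113). The NDUFS8 call was lost without PBS replicate 3 (adjusted p = 0.055). At all 5 promoters every cetuximab library lay above both PBS libraries.

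In the core the change of SCC1 was smaller, with 2 of 5 promoters called and a median of 0.35. The FADD promoter went from 96.3 and 126 to 207, 169 and 199, a change of 0.79 (SE 0.22, adjusted p = 0.00626), which was lost without cetuximab replicate 1 (adjusted p = 0.0573) and without PBS replicate 1 (0.314). PPFIA1 went from 143 and 185 to 279, 187 and 297, a change of 0.61 (SE 0.19, adjusted p = 0.0213). Of the fits that leave out a library, only the one without cetuximab replicate 2 kept this call, and the others gave an adjusted p of 0.0619 to 0.475. The region upstream of CCND1 went from 56 and 65.9 to 119, 74 and 133, a change of 0.79 (SE 0.27, adjusted p = 0.0364), and was lost in the same 4 fits, at an adjusted p of 0.137 to 0.369. Cetuximab replicate 2 was the lowest treated library at all 3 regions. All 3 calls were lost with the GC trend removed. The change was 0.04 at the internal promoter of ANO1 and −0.01 at CTTN, and neither change passed the test. After CTTN 3 of 7 listed promoters were higher (NADSYN1, NUMA1 and LAMTOR1), with a median of 0.58 over the list. These 3 calls were lost with the GC trend removed (adjusted p = 0.566, 0.247 and 0.317) and without PBS replicate 1 (0.554, 0.41 and 0.307). NADSYN1 was also lost without cetuximab replicates 1 or 3, NUMA1 without these or PBS replicate 3, and LAMTOR1 without cetuximab replicate 3.

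The single member that fell in SCC1 lies 6.75 kb from GAL, the gene of the neuropeptide galanin (chr11:68444970-68445263, with 3 AP-1 matches in the printed sequence). It went from 74.2 and 62.5 to 24.1, 23.4 and 43.8, a change of −1.20 (SE 0.36, adjusted p = 0.0152), and the call was lost without PBS replicate 1 (adjusted p = 0.302), PBS replicate 3 (0.121) or cetuximab replicate 1 (0.0707). Outside the listed promoters, coding exon 3 of PHOX2A, a transcription factor of autonomic neurons (chr11:71950572-71951159), rose from 18.2 and 25.7 to 108, 74 and 82.9, a change of 1.96 (SE 0.33, adjusted p = 1.62e-06), and this call was lost with the GC trend removed (adjusted p = 0.0826).

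In SCC6 few members were called, and the share lay below that of the whole table in each direction. Of 141 tested, 15 were higher and 7 lower, where 16.9% and 10.6% of all regions were called, and the median was −0.04 beside 0.11. The balance of directions followed the scaling, with 12 higher and 20 lower after median centring, 10 and 11 after quantile normalization, 13 and 11 in edgeR, 8 and 6 in DESeq2 and 16 and 2 with the GC trend removed. Median centring moved the median change of all regions from 0.11 to −0.06. None of the 5 core promoters was called. Between FADD and PPFIA1, 2 intergenic regions were higher. The first, chr11:70090895-70091200, went from 41.1, 16.7 and 10.9 to 35.4, 52.9 and 49.3, a change of 1.16 (SE 0.33, adjusted p = 0.00759), lost without PBS replicate 3 (adjusted p = 0.0851) and with DESeq2 (0.0585). The treatments overlapped there. The second, chr11:70092213-70092599, went from 1.21, 12 and 1.09 to 35.4, 13 and 24.5, a change of 2.58 (SE 0.58). It passed the filter on low regions through its cetuximab libraries, so no p is given for it in SCC6. Its call held with no filter and was lost with DESeq2. PBS replicates 1 and 3 held 1 read each in the second region, so the size of that change depends on the pseudocount. Upstream of CCND1 by 144 kb, chr11:69311969-69312353 went from 74.9, 69.6 and 55.5 to 108, 109.6 and 138, with no overlap and a change of 0.83 (SE 0.18, adjusted p = 0.000388).

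The largest rise in SCC6 among the named regions was between genes 152 kb beyond the start of MYEOV, a gene first found overexpressed in myeloma (chr11:69213832-69214183). Its signal was 1.21, 0.669 and 2.17 with PBS and 14.1, 17.6 and 15.2 with cetuximab, a fitted change of 2.87. The PBS libraries held 1, 1 and 2 reads there and the cetuximab libraries 14, 19 and 46, so the size of the change depends on the pseudocount, and every cetuximab library lay above every PBS library. In an intron of RNF121, a ubiquitin ligase of the secretory pathway (chr11:71657137-71657587), the signal went from 19.3, 17.4 and 16.3 to 54.5, 40.9 and 47.3, a change of 1.37 (SE 0.28, adjusted p = 0.000191). A region 19.7 kb from GSTP1, a glutathione transferase (chr11:67331123-67331532), went from 26.6, 28.1 and 37 to 60.6, 69.6 and 73.1, a change of 1.13 (SE 0.24, adjusted p = 0.00028). The calls at RNF121 and near GSTP1 held whichever library was left out, whereas the region near MYEOV passed the filter on low regions through its cetuximab libraries, so no p is given for it in SCC6. Among the 7 that fell, an intron shared by POLD4 and RAD9A (chr11:67122109-67122372) went from 74.9, 47.5 and 65.3 to 22.2, 37.1 and 29.1, a change of −1.06 (SE 0.26, adjusted p = 0.00124). The intron of MYEOV printed above (chr11:69167545-69167895) went from 24.2, 25.4 and 25 to 6.06, 15.8 and 9.26, a change of −1.28 (SE 0.38, adjusted p = 0.00984), lost without cetuximab replicate 1 (adjusted p = 0.056). The promoter of PITPNM1, a phosphatidylinositol transfer protein, fell from 138, 158 and 134 to 82.8, 101 and 125, a change of −0.49 (SE 0.16, adjusted p = 0.0164), and in SCC1 it rose by 0.74 (adjusted p = 0.00638). The fall was lost without cetuximab replicate 1 (adjusted p = 0.128) or PBS replicate 2 (0.108), and the rise without PBS replicate 1 (0.264) or cetuximab replicates 1 (0.111) or 3 (0.0593). With the GC trend removed neither call held.

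In SCC25, the line with the high segment, none of 177 members tested was called by limma, where 0.315% of all regions were. Without adjustment 27 members had p below 0.05, and edgeR called 6 and DESeq2 2. The median change was 0.12 beside −0.08 over all regions. At the CCND1 upstream region the signal was 194, 151 and 189 with PBS and 148, 227 and 195 with cetuximab, and the treatments overlapped. They overlapped too at CTTN, with 386, 392 and 359 and 342, 399.9 and 393. At FADD the signal was 428, 435 and 359.7 with PBS and 446, 460.5 and 503 with cetuximab, without overlap, and the change was 0.21 (SE 0.10, adjusted p = 0.358). The lead of SCC25 over SCC6 from 68.5 to 72.0 Mb was 1.97 with PBS, and with cetuximab the levels were 1.27 to 1.43 in SCC25 and −0.74 to −0.61 in SCC6.

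**Figure D3:**
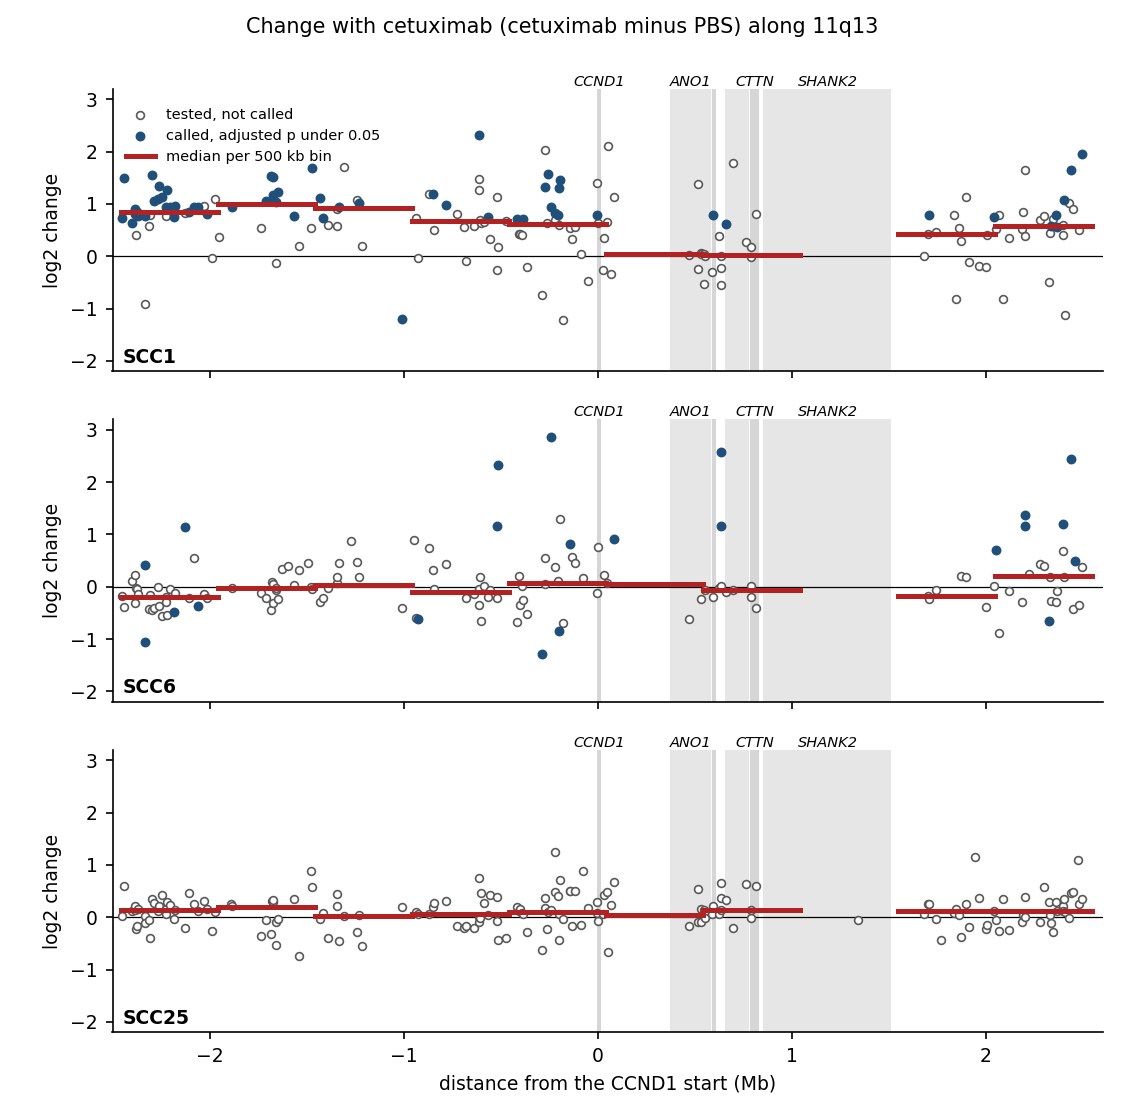
Log2 change after cetuximab at each member tested, in SCC1, SCC6 and SCC25, against distance from the start of CCND1 in Mb. Filled points passed the test and red bars give the median of each 500 kb bin. SCC1 lies above 0 over most of the segment and most so on its left side, whereas the medians of SCC6 and SCC25 stay close to 0.

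Over all lines together, with the line as a term, 18 of 162 members were higher and 2 lower after cetuximab, where 5.14% and 7.04% of all regions were called. The median was 0.24 beside 0.01. With each library centred on its members 5 were higher and 6 lower. An intron of the lncRNA gene ENSG00000204971 (chr11:71891994-71892952), 7.65 kb from FOLR1, a folate receptor gene, had the smallest adjusted p of the members. It went from 40.3 and 24.6 to 100.3, 97.3 and 105 in SCC1, from 8.46, 8.03 and 3.26 to 27.3, 42.7 and 46.6 in SCC6 and from 121, 149 and 106 to 184, 162 and 170.0 in SCC25. The change over all lines was 1.51 (SE 0.24, adjusted p = 0.000418), with 1.65 (SE 0.30, adjusted p = 1.1e-05) in SCC1 and 2.45 (SE 0.39) in SCC6. In SCC25 it was 0.47 (SE 0.15, adjusted p = 0.168). In the SCC6 fit this intron passed the filter on low regions through its cetuximab libraries, so no p is given for that line. The SCC6 call held with no filter. The treatments did not overlap in any of the 3 lines. Another intron of RNF121 (chr11:71656220-71656621) rose by 1.03 (SE 0.21, adjusted p = 0.00319) over all lines, and the intergenic region near MYEOV by 1.35 (SE 0.30, adjusted p = 0.00503). The intron of MYEOV fell by 0.89 on the log2 scale (SE 0.20, adjusted p = 0.00519), from 26 and 16.8 to 12.7, 9.73 and 14.1 in SCC1 and from 122, 105 and 118 to 73.1, 78.2 and 70.8 in SCC25, beside the SCC6 values above. These 4 calls held in all 26 alternatives. LTO1 was called over all lines at 0.33 (SE 0.11, adjusted p = 0.0422) but in no line alone, and that call was lost in 16 of 26 alternatives.

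**Figure D4:**
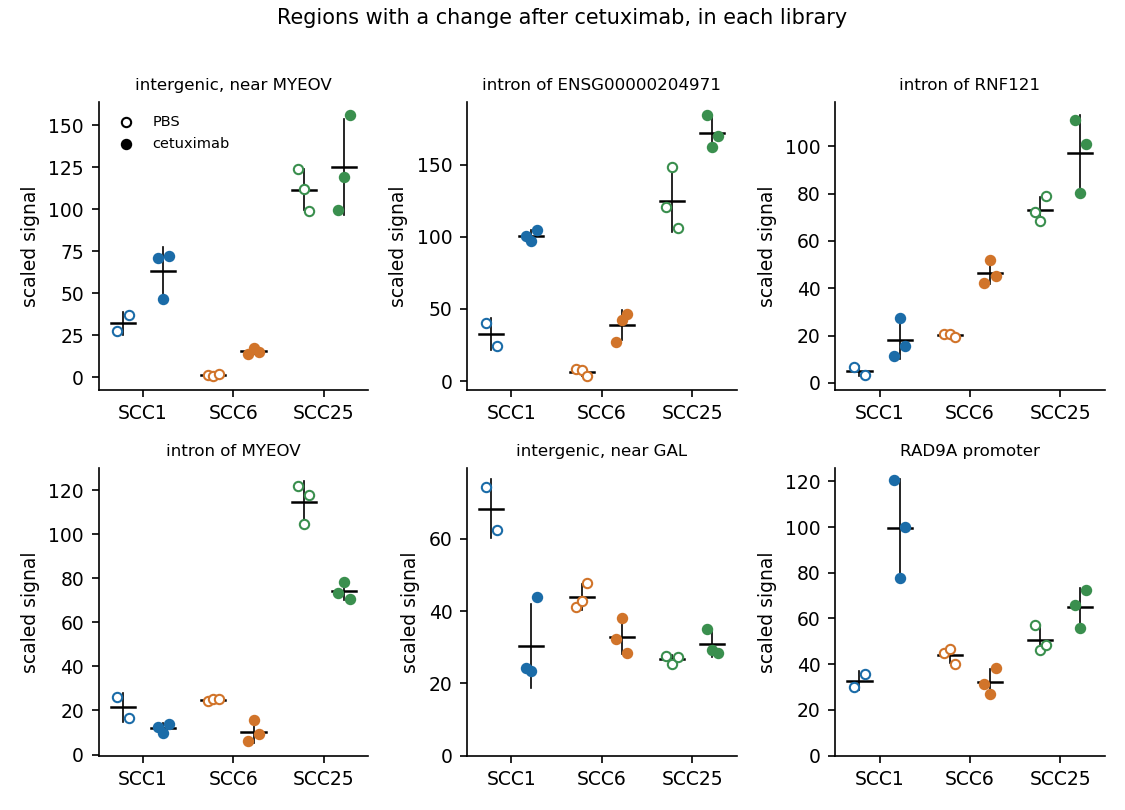
Signal in every library at 6 regions that changed after cetuximab, by line, with PBS as open and cetuximab as filled points, the mean as a line and the SD as a bar. At the introns of MYEOV and ENSG00000204971 the treatments do not overlap in any line, and at the RAD9A promoter they do not overlap in SCC1, where cetuximab lies above PBS, nor in SCC6, where it lies below.

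The response differed between lines at 40 of 162 members, by the F-test of the interaction, where 13.2% of all regions were called. Of the 40, 34 were also called higher in SCC1, and the matching share over all regions was not counted. With the GC trend removed 13 of 162 members were called, beside 8743 of 86315 regions in the whole table. Without cetuximab replicate 1 of SCC6 28 of 163 were called, beside 8848 of 86315. The RAD9A promoter was among the 40 (adjusted p = 0.000833), beside the rise in SCC1 given above. In SCC6 it went from 44.7, 46.8 and 40.2 to 31.3, 26.9 and 38.4, without overlap and in the other direction, and in SCC25 from 57.3, 46.1 and 48.4 to 66.1, 56 and 72.6. NDUFS8 was also called (adjusted p = 0.00175), and went from 112, 130.5 and 123 to 109, 130.0 and 119 in SCC6. The intergenic region near MYEOV had an adjusted p of 0.000237 and went from 124, 112 and 99.2 to 99.8, 119 and 156 in SCC25, and from 27.3 and 36.9 to 71.1, 46.7 and 72 in SCC1, a change of 0.95 (SE 0.34, adjusted p = 0.0489) whose call was lost in 8 of 14 alternatives. The intron of ENSG00000204971 had an adjusted p of 0.00295, with its smallest change in SCC25. FADD was the only core promoter of the 5 called (adjusted p = 0.00926). Its SCC6 values were 68.9, 72.9 and 72.9 with PBS and 52.5, 72.4 and 64.5 with cetuximab.

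The members called higher in SCC1 held few AP-1 matches and many TFAP2 matches. TGANTCA was in 18.3% of the 60 and GCCNNNGGC in 55%, beside 33.0% and 30.4% of all members and 33.5% and 14.5% of all regions. All regions called higher in SCC1 gave 18.2% and 40.7%, so the AP-1 share was not particular to the members. The 60 were wider than the members as a whole, with a median of 474.5 bp against 310.5 bp. The parts of width and of GC content in these shares were not tested. Of the 7 members that fell in SCC6, 5 held TGANTCA (71.4%, beside 57.0% of all regions that fell). Both members that fell over all lines held it, beside 74.4% of all regions that fell over all lines.

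A gap runs through the centre of the segment. At 35 members the table gave 1 read in each of the 17 libraries, the lowest value the table holds, although every one of them had a peak in 2 or more libraries (median 3, at most 16). They made up 15.6% of the members and 2.8% of the other regions. They formed 2 blocks. The first, chr11:69639914-69914465, spans 275 kb before and into ANO1, and all 11 members there were at the floor. The second, chr11:70314570-71050829, spans 736 kb over SHANK2, a scaffold gene of excitatory synapses, and beyond it, with 24 of 25 members. Of 22 members in SHANK2 21 were affected. By line, 2 of the 35 had a peak in SCC1, 17 in SCC6 and 28 in SCC25, and the highest fold enrichment of a peak over background, as the authors' peak caller gave it, was 2.46 to 10.1 per region. Their signal in the table cannot be read as a level, and no difference between lines or treatments is given for them. Around these blocks few members could be tested between lines, 8 of 20 in the bin from 69.5 to 70.0 Mb, 14 of 23 in the next and 0 of 15 in the bin from 70.5 to 71.0 Mb.

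**Figure D5:**
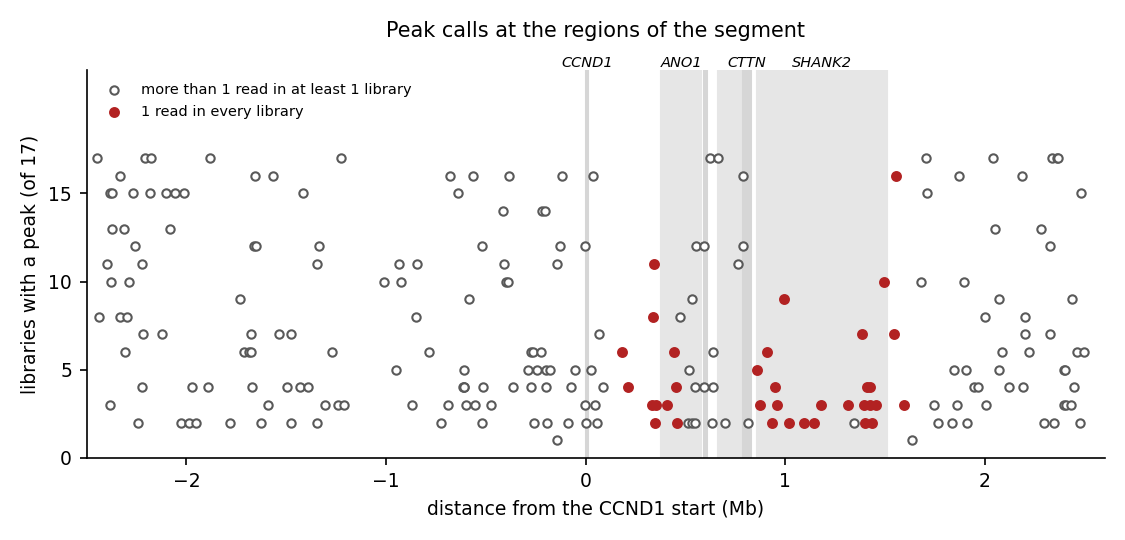
Number of the 17 libraries with a peak at each of the 224 members, against distance from the start of CCND1 in Mb. Filled red points are the 35 members at 1 read in every library, which fall into 2 groups, around the start of ANO1 and over SHANK2, and open points are the other members.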

How the data were processed

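Open chromatin was measured by ATAC-seq in 17 libraries of the lines SCC1, SCC6 and SCC25, treated with cetuximab or PBS and grouped by their labels. The authors trimmed reads with Trim Galore 0.5.0, aligned them to hg19 with Bowtie2 2.3.2, processed alignments with SAMtools 1.9 and Picard 2.18 and called peaks with MACS2, per the submitters' processing notes, and merged peaks into 1 table with DiffBind, per the study's methods. Other versions are not given in the sources used here. The deposited table holds a scaled signal per region, and in the deposited peak files the authors give a score, a fold enrichment and −log10 p-values and q-values of each peak in each library, of which positions and fold enrichment were used. Values of the table were whole multiples of 1 step per library: 100% of them came out whole within 0.001, so the reads behind each value were recovered, with 1 read as the lowest value.

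The main test was limma 3.58.1 in R 4.3.3 (trend and robust empirical Bayes, two-sided) on log2(signal + 1) over all regions, without the 25% lowest in mean, with Benjamini-Hochberg adjustment at 0.05 over all tested regions, which replaces an adjustment over any list. Each line was fitted alone, all lines with the line as a covariate and with the interaction, and the PBS libraries of all lines in 1 fit. Fold changes on this scale understate those of low regions. Annotation was GENCODE release 44 lifted to GRCh37, and a promoter was a region within 1000 bp of a start site. Named regions were the promoter with the highest mean signal for each listed gene, called regions within 50 kb of the core genes, and up to 4 regions per comparison and direction with the smallest adjusted p. Members and lists were chosen with earlier results of these data known. Positions were handled with bedtools 2.31.1 and Python 3.11.15. Other scalings, pseudocount 5, no filter, edgeR 4.0.16 and DESeq2 1.42.0 on the recovered reads, the replicate number as a block and leaving out each library were alternatives, and removal of a loess trend on GC content and centring on the segment were added after the data had been seen. Tests were run on simulated data first. The numbers of reads limit precision. Intervals were not computed, and the floor of 3 reads covers counting error only. The sequence and values of 1 member are not reported here.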

Additional observations from a re-analysis of the deposited data

Results flagged for a closer look

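The response to cetuximab differed between lines, by the F-test of the interaction in limma, at the intergenic region nearest MYEOV (adjusted p = 0.000237), the promoter of RAD9A (adjusted p = 0.000833), the promoter of NDUFS8 (adjusted p = 0.00175) and the intron of ENSG00000204971 (adjusted p = 0.00294). RAD9A and NDUFS8 rose in SCC1, and the intron of ENSG00000204971 rose in SCC1 and SCC6. The region near MYEOV was higher in every SCC6 library with cetuximab than in any with PBS, and its call in SCC1 was lost in 8 of 14 alternatives. In the peak files, 35 members that the table lists at 1 read in every library had a peak in 2 or more libraries.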

How the results depend on the processing

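SCC1 rests on 2 PBS libraries, and the 35 members at the floor cannot be compared at any depth. The number of members called in SCC1, 61, was 8 with the GC trend removed and 22 with segment centring, and 21 to 72 when a library was left out. In SCC6, 22 became 14 with DESeq2 and 14 to 23 without a library. In SCC25, none became 2 with median centring, 2 with quantile normalization, 6 with edgeR, 2 with DESeq2 and 1 with segment centring, and 0 to 1 without a library. Over all lines, 20 became 32 with DESeq2 and 11 with segment centring, and 8 to 19 without a library. For the interaction, 40 became 70 with median centring, 66 with edgeR, 13 with the GC trend removed and 20 with segment centring, and 24 to 57 without a library. The total calls between untreated lines stayed within 1.5 times under every alternative run on the PBS libraries, but not each direction: with the GC trend removed SCC6 against SCC1 had 36 higher and 26 lower, from 22 and 54, and SCC25 against SCC1 had 6 lower, from 10. The causes of these shifts were not tested.

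The median log2 difference of the members minus that of all regions was −0.183 for SCC6 against SCC1, 1.09 for SCC25 against SCC1 and 1.17 for SCC25 against SCC6. For SCC6 against SCC1 it was −1.08 in the cetuximab libraries. For SCC25 against SCC1 it was 0.757 with no filter, and 0.504 in the cetuximab libraries, and 0.947 to 1.12 without a library. For SCC25 against SCC6 it was 1.28 with quantile normalization, 0.879 with no filter and 1.46 in the cetuximab libraries. In regions without a peak, another quantity, the log2 ratio of the segment's share of reads, was −0.406 for SCC6 against SCC1 and 1.55 for SCC25 against SCC1.

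With segment centring the change in SCC1 turned to −0.036 at PITPNM1, −0.0187 at CHKA, −0.169 at PPFIA1, −0.00187 at NADSYN1 and −0.204 at NUMA1. With the GC trend removed the difference of SCC6 from SCC1 turned to 0.458 at PPP6R3, 0.37 at NUMA1 and −0.0303 in an intron of RNF121 (chr11:71657137-71657587), and in another intron of RNF121 (chr11:71678196-71678396) the difference of SCC25 turned to 0.905 against SCC1 and 0.831 against SCC6.

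Replicate numbers did not pair the libraries. Deviations of same-numbered libraries correlated at −0.023 to 0.038 in every line. With the replicate block 73 members were called in SCC1, 22 in SCC6, 1 in SCC25, 7 over all lines and 55 for the interaction.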
